A study of Mus musculus with 24 samples.

Results

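Genes that mark T cells were followed in the mammary glands of ovariectomized mice given progesterone or its vehicle. The 9 genes, chosen by name, were the CD3 chains Cd3d, Cd3e and Cd3g, the coreceptors Cd4 and Cd8a, the adhesion receptor Cd2, the kinase Lck, the inhibitory receptor Cd5 and the interleukin-7 receptor chain Il7r. They were looked up by gene symbol in the annotation of the array, and 8 of the 9 had at least 1 probe set (a group of short probes against a transcript) with a single symbol, among 18193 genes measured in this way. Lck had none there and was not analysed here. Cd8a had 5 such probe sets, Cd4 and Il7r had 2 each, and the other members had 1; the probe set with the highest mean log2 intensity over the 24 arrays stood for the gene. The 8 main probe sets lay above the array median on 24 of 24 arrays, so that none of them entered through a group in which it was high, and 12352 genes in all passed the filter on dim genes.

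The animals were nulliparous Balb/c mice without ovaries, removed at 6 weeks of age and followed by 2 weeks of rest. Each mouse received 1 mg of progesterone in 100 µl of sesame oil under the skin every day, or the oil alone, and was killed 4, 16, 28 or 76 h after the first injection. Each of the 8 groups had 3 Affymetrix Mouse Genome 430 2.0 arrays, and each array carried the RNA of mammary tissue pooled from 5 mice, 15 mice per group, so that a p-value measures the spread between pools and not between single mice. All mice, those given oil included, lacked ovaries, and on a daily schedule the mice killed at 28 and 76 h had received more than 1 injection, so that time and number of injections cannot be told apart. Whether the lymph node that lies in the mouse mammary fat pad was taken with the gland is not given in the sources used here. In RNA of such bulk tissue, fewer T cells and less RNA per T cell cannot be told apart.

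T cells recognise peptides through a receptor that cannot signal alone. Its chains assemble with the CD3 chains, whose cytoplasmic tails are phosphorylated by Lck when CD4 or CD8 brings the kinase to the receptor. CD2 strengthens the contact with the other cell, CD5 dampens the signal, and the interleukin-7 receptor keeps resting T cells alive. In the mammary gland T cells lie in the stroma, between epithelial cells and in the lymph node of the fat pad.

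The deposited intensities were on a common scale, with array medians between 62.8 and 70.2 and correlations of log2 values between any pair of arrays from 0.961 to 0.989. The gene of the progesterone receptor, Pgr, served as a check of the treatment: it fell by 2.45 on the log2 scale at 4 h (SE 0.21, limma adjusted p = 2.02e-07) and was not called at 76 h (0.0046 ± 0.21, adjusted p = 0.993). All fits below were made with limma on 24 arrays, p-values were adjusted with the Benjamini-Hochberg method over the 12352 genes, and an adjusted p under 0.05 counted as a call. On the 4 h arrays the log2 ratio of the 3′ to 5′ control probes of actin, a sign of RNA length, was 0.506 to 0.590 with progesterone and 0.408 to 0.437 in oil. The same ratio for Gapdh was 0.253, 0.343 and 0.0009 on the progesterone arrays of 4 h. The first and second of these stood apart from all other arrays of the series, which ran from -0.23 to 0.03.

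T cell genes were lower with progesterone than with oil, by their median, at each of the 4 times. The median log2 difference over the 8 members came to -0.30, -0.32, -0.24 and -0.50 at 4, 16, 28 and 76 h, where the medians of all 12352 genes were -0.01, -0.07, 0.00 and 0.02. In the mean of the 4 times, 7 of the 8 members fell (Cd2, Il7r, Cd5, Cd3d, Cd8a, Cd3e and Cd3g, by 0.32 to 0.38 on the log2 scale), against 6.63% of all genes called lower in that comparison. Single times gave fewer calls. At 76 h 4 members fell (Cd8a, Cd5, Cd3d and Cd2), against 6.7% of all genes, and at 28 h only Il7r fell, against 0.591%. At 4 and 16 h 0 members were called by limma, with 4 and 3 members at an unadjusted p under 0.05, and the shares of all genes called lower were 0.0567% and 0.202%.

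**Figure D1:**
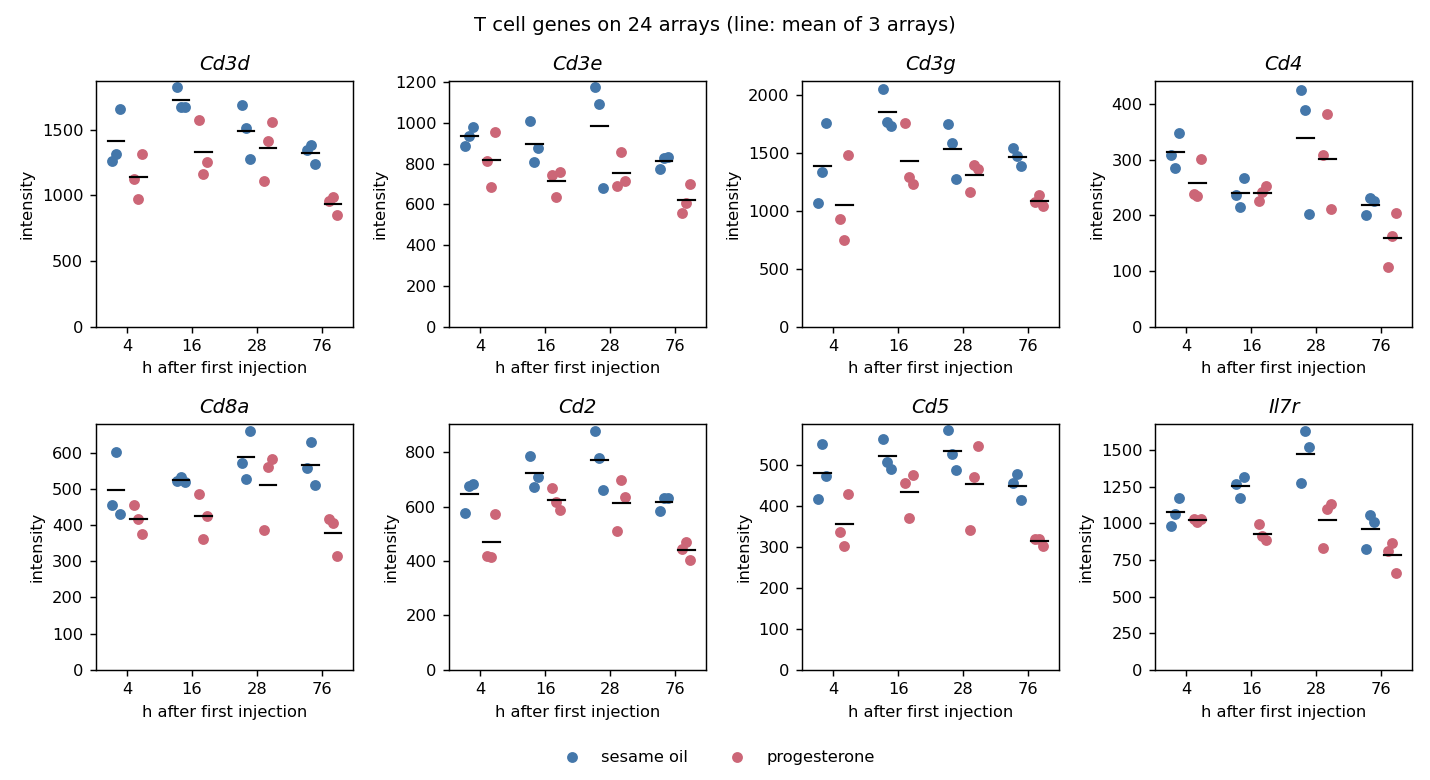
Intensity (linear scale, axis from 0) of the main probe set of the 8 measured T cell genes on each of the 24 arrays, against the hours after the first injection; points are arrays of pooled RNA, blue for sesame oil and red for progesterone, and lines are means of 3 arrays. At 76 h the progesterone arrays lie below all oil arrays of that time for 6 of the 8 genes, with an overlap for Cd4 and Il7r.

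In the arrays themselves the signs gave the same picture, and the overlaps did so at 16 and 76 h only. For 7 of the 8 members the progesterone mean was below the oil mean at 4 of 4 times, where 11.4% of all genes were; Cd4 was the exception, with 0.01 ± 0.24 at 16 h. All 3 progesterone arrays lay below all 3 oil arrays of their time for Cd2 alone at 4 h, for 6 members at 16 h, for Il7r alone at 28 h and for 6 members at 76 h. The shares of all genes with such a separation downward were 12.8%, 11.7%, 5.24% and 18.9%. The size of the member differences was not shown to change with time: by a moderated F-test of equal differences at the 4 times 0 of 8 members were called (lowest adjusted p = 0.237, for Il7r, and 0 members at an unadjusted p under 0.05), against 10% of all genes.

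The CD3 chains Cd3d, Cd3e and Cd3g are the signalling subunits of the T cell receptor. At 76 h the intensities of Cd3d were 1343, 1386 and 1241 in oil and 957, 985 and 848 with progesterone. The groups did not overlap, and Cd3d was 1.42-fold lower (log2 -0.51 ± 0.14, adjusted p = 0.0114). At 16 h it measured 1821, 1674 and 1672 in oil and 1574, 1159 and 1253 with progesterone, again without overlap, with a log2 difference of -0.39 ± 0.14 that was not called (adjusted p = 0.189). At 4 h (1258, 1315 and 1656 in oil, 1124, 969 and 1316 with progesterone) and at 28 h (1684, 1509 and 1277 in oil, 1105, 1415 and 1559 with progesterone) the groups overlapped. The differences there were -0.31 (adjusted p = 0.342) and -0.14 (adjusted p = 0.827).

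Cd3g encodes the gamma chain and lies beside Cd3d on chromosome 9. Its intensities at 76 h were 1543, 1471 and 1386 in oil and 1077, 1139 and 1039 with progesterone. The difference, -0.43 ± 0.19, was without overlap but was not called (adjusted p = 0.124). At 4 h the oil arrays read 1068, 1338 and 1758 and the progesterone arrays 930, 745 and 1485. The third progesterone array at 4 h stood above the others of its group for Cd3g and for 5 of the other members. It also had the lowest 3′ to 5′ ratios of the 3, 0.506 for actin and 0.0009 for Gapdh. The Gapdh ratios of the first and second were 0.253 and 0.343. The part of RNA length in this difference was not tested. Cd3g at 16 h read 2055, 1764 and 1733 in oil and 1760, 1291 and 1234 with progesterone, and at 28 h 1748, 1589 and 1276 against 1164, 1394 and 1361. In the mean of the 4 times Cd3g fell by 0.37 on the log2 scale (SE 0.09, adjusted p = 0.0108).

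Cd3e encodes the epsilon chain, which pairs with both of the other chains. At 76 h it measured 775, 827 and 831 in oil and 558, 605 and 700 with progesterone, without overlap, and the log2 difference of -0.39 ± 0.16 was not called (adjusted p = 0.0877). At 28 h the oil arrays were spread over 1174, 1094 and 680, with the third array below the progesterone arrays, at 691, 857 and 714. Without that oil array the 28 h difference was -0.60 (adjusted p = 0.0116) in place of -0.35 (adjusted p = 0.338). The remaining arrays read 888, 933 and 978 in oil and 811, 684 and 955 with progesterone at 4 h, and 1008, 809 and 877 against 742, 636 and 761 at 16 h. Over the 4 times Cd3e fell by 0.32 on the log2 scale (SE 0.08, adjusted p = 0.0075).

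The start regions of the 3 CD3 genes are shown because these genes are neighbours on chromosome 9. The sequences are RefSeq promoter windows on build GRCm38.p6, from 250 bases before to 50 after the start site, and run 5′ to 3′ along the strand of the gene. Capitals mark matches of AGGAAG (or its reverse complement, the core that ETS factors bind), CAGCTG, which is an E-box, and of the GATA motif AGATAA. Il7r, on chromosome 15, is set beside them as the member called at 28 h and between the oil groups; its capitals mark AGGAAG and TGTGGT (a RUNX motif). The windows lie at chr9:44981536-44981835 on the plus strand (Cd3d), chr9:44980382-44980681 on the minus strand (Cd3g), chr9:45009562-45009861 on the minus strand (Cd3e) and chr15:9529827-9530126 on the minus strand (Il7r).
Cd3d: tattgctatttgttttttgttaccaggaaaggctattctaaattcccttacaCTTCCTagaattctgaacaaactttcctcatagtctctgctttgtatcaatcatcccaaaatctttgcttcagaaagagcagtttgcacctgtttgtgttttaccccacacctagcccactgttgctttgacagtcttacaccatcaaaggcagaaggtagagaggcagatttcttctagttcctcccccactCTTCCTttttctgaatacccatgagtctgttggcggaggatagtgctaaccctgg
Cd3g: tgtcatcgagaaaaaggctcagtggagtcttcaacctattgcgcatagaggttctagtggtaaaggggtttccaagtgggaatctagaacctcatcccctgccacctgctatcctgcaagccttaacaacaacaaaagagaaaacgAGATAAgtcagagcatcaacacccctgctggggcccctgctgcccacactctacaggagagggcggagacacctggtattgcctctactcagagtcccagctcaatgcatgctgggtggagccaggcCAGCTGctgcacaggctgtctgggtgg
Cd3e: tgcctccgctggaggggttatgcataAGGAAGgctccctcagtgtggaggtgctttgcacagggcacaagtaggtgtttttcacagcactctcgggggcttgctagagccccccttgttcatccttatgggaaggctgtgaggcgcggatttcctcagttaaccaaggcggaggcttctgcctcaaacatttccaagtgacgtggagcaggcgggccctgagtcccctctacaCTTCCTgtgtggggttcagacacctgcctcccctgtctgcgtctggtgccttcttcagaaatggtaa
Il7r: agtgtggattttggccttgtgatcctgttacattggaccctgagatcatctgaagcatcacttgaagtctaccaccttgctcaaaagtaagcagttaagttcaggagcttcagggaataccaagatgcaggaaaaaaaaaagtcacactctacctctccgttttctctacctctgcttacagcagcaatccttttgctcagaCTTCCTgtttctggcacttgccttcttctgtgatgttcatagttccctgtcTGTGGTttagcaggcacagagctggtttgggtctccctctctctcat

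Cd3g and Cd3d are read away from each other, from start sites 1355 bases apart, and the start of Cd3e lies 27825 bases from that of Cd3d. The correlation of Cd3d with Cd3g over 24 arrays was 0.88, that of Cd3d with Cd3e 0.70 and that of Cd3e with Cd3g 0.58, and Cd3d was as close to Cd5 (0.90) and Cd2 (0.89), which lie elsewhere. The ETS letters AGGAAG stand at 198 and 5 bases before the start site of Cd3d (positions -198 and -5) and at positions -224 and -17 in Cd3e, each counted from the start site at the first base of the match, and the Cd3g window has no match. RefSeq windows were found for 7 of the 9 members, 8 windows in all with 2 of Lck, and searched on both strands. AGGAAG was in 6 of the 8, against 35.4% of 32851 windows of all genes, CAGCTG in 2 (16.3%), TGTGGT in 2 (16.8%), AGATAA in 1 (11.2%) and the ETS letters CGGAAG in 0 (16.9%). TGTTCT, the half-site of progesterone and other steroid receptors, was in 1 of the 8, that of Cd8a at position -189, against 19% of all windows. The full palindromic site of these receptors was in 0 of the 8, against 0.475%. No matches overlapped each other in these windows, and a match is a description of the sequence only.

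Cd8a encodes the alpha chain of the coreceptor of cytotoxic T cells, which some dendritic cells of the mouse also carry. At 76 h its main probe set measured 559, 629 and 512 in oil and 418, 405 and 314 with progesterone. The groups did not overlap, and the difference of -0.59 ± 0.16 was the largest of the 8 members at that time (adjusted p = 0.00976). At 16 h the oil arrays were close together, at 522, 532 and 519, and the progesterone arrays lower, at 487, 361 and 425, with a difference of -0.32 ± 0.16 (adjusted p = 0.29). The groups overlapped at 4 h (455, 602 and 431 in oil, 455, 418 and 375 with progesterone) and at 28 h (572, 529 and 662 in oil, 387, 561 and 582 with progesterone).

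The 5 probe sets of Cd8a disagreed. Probe set 1451673_at fell in the mean of the 4 times (-0.45 ± 0.09, adjusted p = 0.00182), and the dim probe sets 1440164_x_at and 1440811_x_at fell at 76 h (-0.67, adjusted p = 0.0222, and -0.66, adjusted p = 0.0293). Probe set 1425335_at, which also lay above the median on 24 of 24 arrays, ran the other way, with 0.29 ± 0.16 at 4 h (adjusted p = 0.473) and 0.30 ± 0.16 at 76 h (adjusted p = 0.229). Its mean over the 4 times was 0.11 ± 0.08 (adjusted p = 0.407). The fall of Cd8a thus rests on which probe set is read; the main one is 1444078_at.

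Cd4 encodes the coreceptor of helper T cells. Its main probe set was the only one of the 8 without a call in the mean of the 4 times (-0.23 ± 0.12, 95% interval -0.48 to 0.01, adjusted p = 0.215). At 76 h it measured 200, 231 and 225 in oil and 107, 163 and 205 with progesterone, with an overlap, and a difference of -0.51 ± 0.24 (adjusted p = 0.146). At 16 h the groups were level, at 237, 214 and 267 in oil and 226, 241 and 252 with progesterone. At 28 h it measured 425, 388 and 203 in oil and 307, 383 and 212 with progesterone, with the third array far below the other two in both groups. At 4 h the values were 308, 286 and 347 in oil and 238, 234 and 301 with progesterone (-0.29 ± 0.24, adjusted p = 0.662). The second Cd4 probe set, 1427779_a_at, had a mean intensity of 47.4 and lay above the array median on only 5 arrays; it fell by 0.53 on the log2 scale in the mean of the 4 times (adjusted p = 0.00377).

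Cd2, the adhesion receptor of T and NK cells, had the smallest adjusted p of the 8 in the mean of the 4 times. At 4 h it measured 577, 677 and 685 in oil and 418, 415 and 575 with progesterone. It was the only member whose 4 h groups did not overlap, the highest progesterone array lying just below the lowest oil array, and its difference of -0.47 ± 0.13 was not called (adjusted p = 0.121). At 76 h the oil arrays read 586, 632 and 631 and the progesterone arrays 445, 469 and 406. This was a 1.40-fold lower level without overlap (log2 -0.49 ± 0.13, adjusted p = 0.0111). Differences at 16 h (787, 674 and 709 in oil, 671, 619 and 588 with progesterone) and 28 h (880, 781 and 661 in oil, 509, 700 and 635 with progesterone) were -0.21 (adjusted p = 0.397) and -0.34 (adjusted p = 0.237). Over the 4 times Cd2 fell by 0.38 on the log2 scale (SE 0.07, 95% interval -0.51 to -0.24, adjusted p = 0.000444).

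Cd5, which dampens receptor signals in T cells and is also found on a class of B cells, followed Cd2. At 76 h it measured 456, 478 and 414 in oil and 318, 320 and 303 with progesterone. The progesterone arrays were close together (314 ± 9.58, SD, n = 3) and below all 12 oil arrays of the study, and Cd5 was 1.43-fold lower (log2 -0.52 ± 0.15, adjusted p = 0.0176). At 4 h it measured 416, 551 and 473 in oil and 336, 302 and 429 with progesterone (-0.44 ± 0.15, adjusted p = 0.204). The values at 16 h were 563, 507 and 490 against 456, 371 and 474, and at 28 h 585, 526 and 488 against 341, 470 and 545. Only those at 16 h were separated. The mean over the 4 times was -0.37 ± 0.07 (adjusted p = 0.00167).

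Il7r had its largest difference at 28 h instead of 76 h. At 28 h it measured 1276, 1629 and 1520 in oil and 831, 1100 and 1135 with progesterone. The groups did not overlap, and Il7r was 1.45-fold lower (log2 -0.54 ± 0.12, adjusted p = 0.0155). At 16 h the oil arrays read 1267, 1175 and 1315 and the progesterone arrays 995, 913 and 883, also apart (-0.43 ± 0.12, adjusted p = 0.147). At 4 h the groups were close, at 984, 1067 and 1174 in oil and 1032, 1011 and 1031 with progesterone (-0.07 ± 0.12, 95% interval -0.32 to 0.19). At 76 h they overlapped, at 826, 1057 and 1012 in oil and 813, 866 and 662 with progesterone (-0.31 ± 0.12, adjusted p = 0.0897). The other Il7r probe set, 1448576_at, gave -0.55 ± 0.17 at 28 h (adjusted p = 0.105) and -0.39 ± 0.09 in the mean of the 4 times (adjusted p = 0.00404).

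**Figure D2:**
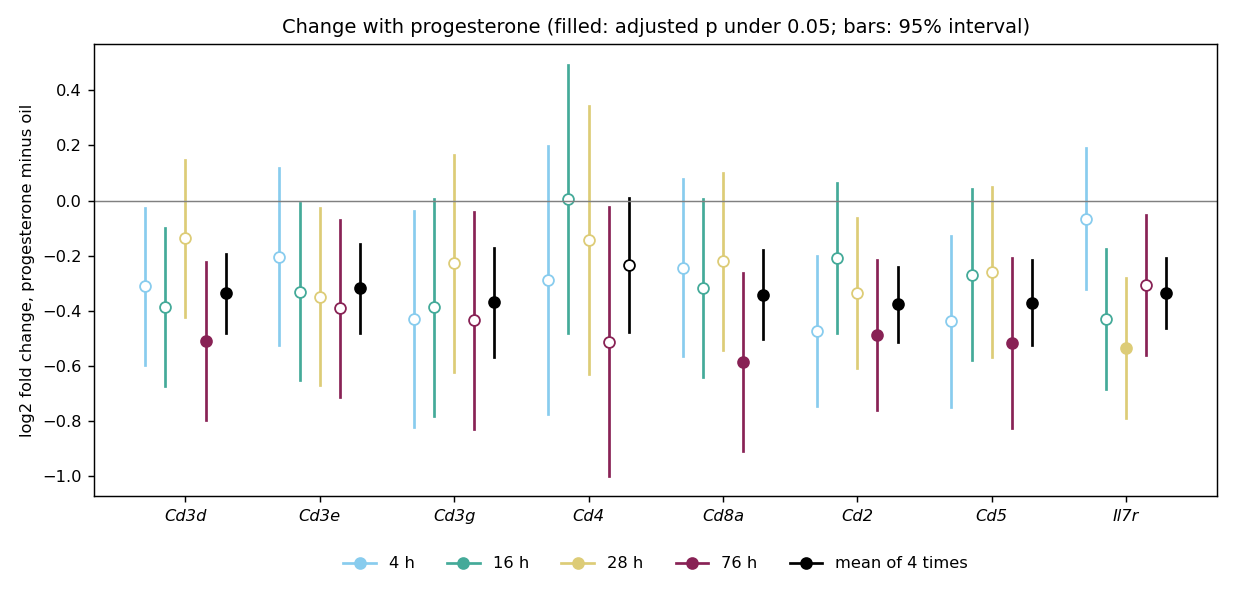
Log2 fold change (progesterone minus oil) of the 8 T cell genes at each time and in the mean of the 4 times; points are limma estimates, filled where the adjusted p is under 0.05, and bars are 95% intervals. The estimates lie below 0 but for Cd4 at 16 h (0.01), and the filled points are Il7r at 28 h, Cd3d, Cd8a, Cd2 and Cd5 at 76 h, and all but Cd4 in the mean.

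Single arrays carried several of these calls. Without the third progesterone array of 76 h 0 members were called at 76 h (Cd2, Cd3d, Cd5 and Cd8a at adjusted p from 0.052 to 0.0692), and without the second oil array of 76 h only Cd2 was. The call of Il7r at 28 h was lost without the second oil array (adjusted p = 0.107) or the first progesterone array (adjusted p = 0.184) of that time. Without the third progesterone array of 4 h, Cd2 (-0.63), Cd3g (-0.71) and Cd5 (-0.58) were called at 4 h. Calls over all 12352 genes then rose from 23 to 477, 372 of them lower. The progesterone arrays left there were those with Gapdh ratios of 0.253 and 0.343, whose part was not tested. Without the first progesterone array of 16 h, Cd3d (-0.51) and Il7r (-0.48) were called at 16 h. Calls over all genes then rose from 38 to 1843, 1437 of them lower. With arrays weighted by their quality, which rests on 3 arrays per group, the members called at the 4 times numbered 4, 6, 3 and 7. The weights also raised the number of all genes called at each of these times, most at 16 h. Those counts are given with the processing below, and the weighted member counts are not particular to the members. The mean of the 4 times gave 7 or 8 calls whichever array was left out, and 2 calls, Cd2 and Il7r, when all 76 h arrays were left out, an alternative added after the data had been seen.

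The oil groups, which received no hormone, were compared to see how much T cell genes vary without it. By a moderated F-test only Il7r differed between the 4 oil groups (adjusted p = 0.00847), against 12.2% of all genes. Il7r was higher in the 28 h oil group than in the mean of the other oil groups (0.43 ± 0.10, adjusted p = 0.00763, against 1.5% of all genes called higher) and lower in the 76 h oil group (-0.39 ± 0.10, adjusted p = 0.0387, against 1.97% called lower). From high to low, its oil means were 1475 ± 180 (SD, n = 3, 28 h), 1252 ± 71.3 (16 h), 1075 ± 95.3 (4 h) and 965 ± 123 (76 h). Of the other members, Cd4 at 76 h (-0.40, adjusted p = 0.252), Cd3d at 16 h (0.30, adjusted p = 0.152) and Cd3g at 16 h (0.35, adjusted p = 0.225) differed from the other oil groups at an unadjusted p under 0.05 but were not called. No member was called in the 4 h and 16 h oil groups, where 2.86% and 0.996% of all genes were, and at an unadjusted p under 0.05 there were 0 members at 4 h and 2 at 16 h.

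Because the oil groups differ, each progesterone group was also set against the mean of the oil groups of the other 3 times. These comparisons share control arrays with each other. At 76 h 8 of the 8 members were lower, by 0.50 (Cd8a) to 0.91 (Cd4) on the log2 scale, with adjusted p from 1.2e-05 to 0.0111 and 15.7% of all genes called lower. At 4 h 5 were lower (Cd3g, Cd2, Cd5, Cd8a and Cd3d, with Cd3g at -0.67 and Cd2 at -0.59), against 3.46% of all genes. At 16 h 0 were called by limma, with 3 at an unadjusted p under 0.05 and 2.23% of all genes lower, and at 28 h 0 were called, with 0 at an unadjusted p under 0.05 and 0.421% of all genes lower. The call of Il7r at 28 h was thus made against the oil group of its own time; against the others its difference was -0.10 ± 0.10 (adjusted p = 0.671).

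In the order of the 8 group means, the progesterone group of 76 h was lowest for every member except Cd3g, for which that of 4 h was (1053 ± 385 against 1085 ± 50.4, a gap smaller than the spread). The oil group of 28 h was highest for Cd3e, Cd4, Cd8a, Cd2, Cd5 and Il7r, and that of 16 h for Cd3d and Cd3g. Neighbours in these orders mostly overlapped. The exceptions were Cd3g, in which the progesterone groups of 28 and 76 h did not overlap (1306 ± 124 and 1085 ± 50.4), and Il7r, in which the oil groups of 16 and 4 h and the progesterone groups of 16 and 76 h did not. Between the highest and the lowest array the intensity of a main probe set differed from 1.93-fold (Cd5) to 3.96-fold (Cd4). Differences between groups made up 57.5% (Cd3e) to 80% (Il7r) of a member's log2 variance, and 52.5% in the median gene.

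The members varied together across arrays, less so the main probe sets of the coreceptors. As a description over 24 arrays that share pools and scaling, Cd2 and Cd5 had a Pearson r of 0.92, Cd3d and Cd5 0.90, and Cd3d and Cd2 0.89. Against the mean of the other members, r was 0.93 for Cd2, 0.91 for Cd5 and Cd3d, and lowest for Cd4 (0.53) and Cd8a (0.60). Once the group means were taken off, so that only differences between pools of the same treatment and time were left, Cd3d and Cd3g still had an r of 0.87 and Cd3g and Cd2 of 0.83. Cd4 and Cd8a, each read on its main probe set, then had an r of -0.50, and Cd4 with Cd3e of 0.80. Cd8a, whose probe sets disagreed, had an r of only 0.07 with the mean of the other members within groups. Cd8b1, its partner chain, had an r of 0.86 within groups and 0.85 over all differences with the mean deviation of the 8 members. The low values of Cd8a were read on its main probe set alone, and its other probe sets were not set against the members.

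**Figure D3:**
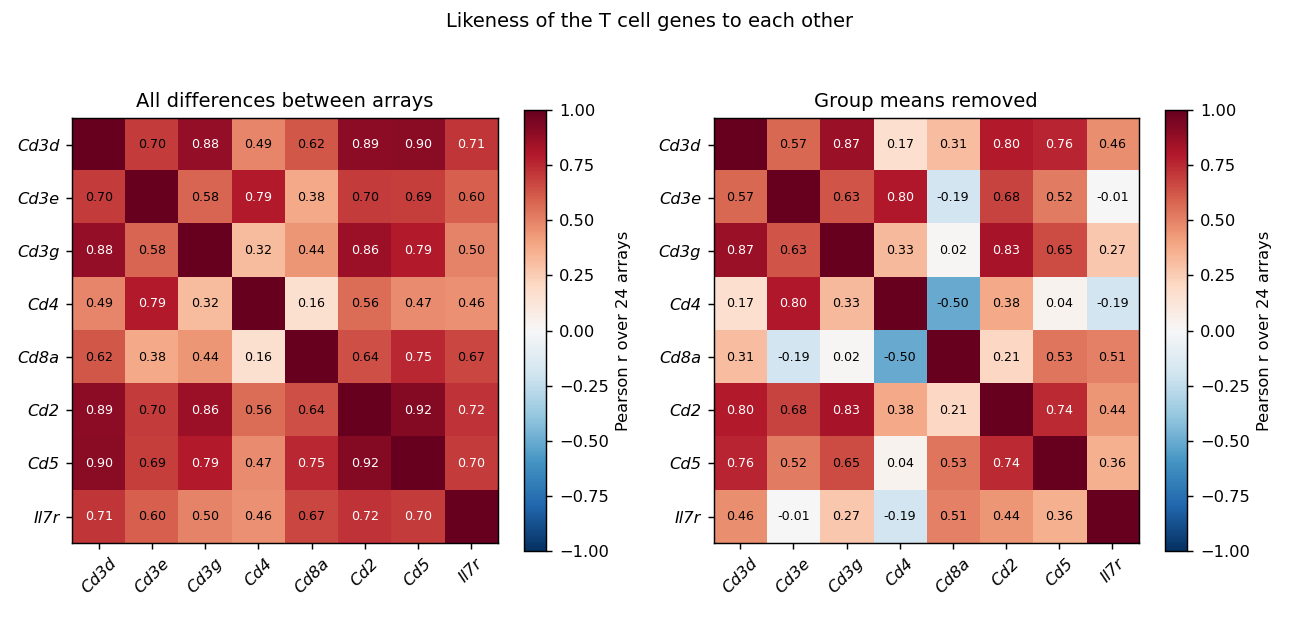
Pearson r between the log2 values of each pair of the 8 T cell genes over 24 arrays, left for all differences between arrays and right after each group's mean was taken off; colour runs from -1 (blue) to 1 (red). Cd3d, Cd3g, Cd2 and Cd5 form a block from 0.79 to 0.92 on the left, and the pair Cd4 and Cd8a is at -0.50 on the right.

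The genes most like the members were found by the Pearson r of their log2 values with the mean deviation of the 8 members. Over 24 arrays the 10 nearest were Cd52 (0.96), Ptprcap, Pik3cd, Cxcr5, Rcsd1, Gpr18, Lat, Fermt3, Trav9d-3 and Napsa (0.93). Lat is the adaptor downstream of the T cell receptor, Trav9d-3 a variable segment of its alpha chain, Cd52 a surface protein of lymphocytes and Ptprcap a partner of the phosphatase CD45, and Cxcr5 is the chemokine receptor of B cells and follicular helper T cells. After the group means were taken off, Nup210 (0.90), Cxcr5, Fam107b, Cd52, Grk6, Smc6, Fcmr, Sh2d1a, Ccr7 and Slfn1 (0.86) were nearest. The median r of all other genes was 0.03. The B cell list had a median r of 0.84 and the list of leukocytes in general 0.86, against 0.73 for the genes of T cell receptor signalling, 0.74 for those of T cell identity and homing, and -0.63 for mammary epithelium.

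Genes of T cell receptor signalling moved in the direction of the members. Of 18 tested, 11 fell in the mean of the 4 times, 5 at 76 h and 1 each at 16 and 28 h. At 4 h 0 were called by limma, with 3 at an unadjusted p under 0.05. The shares of all genes called lower were 6.63% in the mean and 6.7% at 76 h. At 4, 16 and 28 h they were 0.0567%, 0.202% and 0.591%. Lat fell by 0.43 on the log2 scale in the mean of the 4 times (SE 0.06, adjusted p = 3.14e-05). Prkcq, a kinase that carries the signal to NF-κB, fell at 16 h (-0.65 ± 0.14, adjusted p = 0.0473) and at 76 h (-0.42, adjusted p = 0.0365). At 28 h the call was Ptpn22, a phosphatase that limits the signal (-0.65 ± 0.18, adjusted p = 0.0471). Cd247, the zeta chain that completes the receptor, fell at 76 h (-0.44 ± 0.15, adjusted p = 0.0485), as did Themis (-0.55). The medians of the 18 at the 4 times were -0.12, -0.29, -0.28 and -0.36.

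Genes of T cell identity and homing gave 11 falls of 16 in the mean of the 4 times, against 6.63% of all genes. At 76 h 7 fell and 1 rose, against 6.7% of all genes called lower and 11.1% called higher. Cd8b1, the partner chain of Cd8a, fell by 0.51 at 76 h (SE 0.15, adjusted p = 0.0221), Icos, a costimulatory receptor, by 0.55 (adjusted p = 0.0344) and the transcription factor Ikzf3 by 0.64 (adjusted p = 0.0481). Ccr7, the chemokine receptor that leads T cells into lymph nodes, fell by 0.42 in the mean of the 4 times (adjusted p = 8.86e-05). Thy1, which mouse T cells share with fibroblasts and other cells, rose at 76 h (0.65 ± 0.15, adjusted p = 0.00267), and its difference changed between times (adjusted p = 0.0121). At 28 h Gimap4 fell (-0.33, adjusted p = 0.0388), against 0.591% of all genes. At 4 and 16 h 0 of the 16 were called by limma, with 6 and 11 at an unadjusted p under 0.05, and 0.0567% and 0.202% of all genes were called lower. Foxp3, the factor of regulatory T cells, was measured with a mean intensity of 38.8 and did not pass the filter.

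The list of interleukin-7 and interleukin-2 family signalling, which is not limited to genes that act with Il7r, gave few calls. Of 10 genes of interleukin-7 and interleukin-2 signalling tested, only Il2rb, the receptor chain shared by interleukins 2 and 15, was called in the mean of the 4 times (-0.53 ± 0.11, adjusted p = 0.00196). Of all genes 6.63% were called lower in that comparison. At 28 h 0 were called by limma, with 1 at an unadjusted p under 0.05, Il2rb (-0.48 ± 0.22, adjusted p = 0.348). Whether any of them differs from Il7r was not tested. Il2rg, the chain that pairs with Il7r, had no probe set with a single symbol and was not analysed here. The cytokine gene Il7 itself was at -0.30 ± 0.15 at 76 h (adjusted p = 0.173). The genes of immature thymic T cells were near the bottom of the scale: of Rag1, Rag2, Dntt and Ptcra, 0 of the 4 passed the filter, and Rag1 was at or under the floor of 7.38 on 22 of the 24 arrays.

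Markers of other lymphoid cells moved with the T cell genes. Of all genes 6.63% were called lower in the mean of the 4 times and 6.7% at 76 h. Of 11 B cell genes 9 fell in the mean of the 4 times and 6 at 76 h, among them Cd79b (-0.59 ± 0.15, adjusted p = 0.00564), a chain of the B cell receptor, and Ms4a1 (-0.52, adjusted p = 0.024). The mean log2 deviation of the B cell list ran from -0.69 to -0.40 on the 76 h progesterone arrays and from -0.21 to 0.01 on the 76 h oil arrays, and its summed intensity from 7562 to 9184 against 10479 to 12370. For the T cell genes the same measures ran from -0.49 to -0.37 against -0.03 to 0.10, and from 4476 to 4953 against 6252 to 6712. Of 8 genes of leukocytes in general 8 fell in the mean of the 4 times, Cd52 by 0.30 (adjusted p = 0.000409), and 3 at 76 h. Of 7 genes listed for lymph node stroma and high endothelial venules 4 fell in the mean of the 4 times: Ltb, Cr2, Cxcl13 and Glycam1. Chst4 (-0.02), Fut7 (0.03) and Madcam1 (-0.15, limma adjusted p = 0.166) were not called in it, so the falls do not cover the whole list. Cr2 and Ltb had an r of 0.87 and 0.58 with the mean deviation of the T cell genes. Once group means were taken off, these were 0.70 and 0.79, and the rest of the list ran from -0.19 (Chst4) to 0.43 (Cxcl13). The list, with Cr2 and Ltb in it, is thus not a reading of stroma and venules apart from lymphocytes. At 76 h 1 of the 7 fell, the B cell chemokine Cxcl13 (-0.34 ± 0.10, adjusted p = 0.0202). The deviation of the 7 genes at 76 h ran from -0.28 to -0.20 with progesterone and from -0.09 to 0.03 in oil, with summed intensities of 12265 to 14005 and 15134 to 15819. Glycam1, made by high endothelial venules and by milk-secreting epithelium, fell in the mean of the 4 times (-0.13 ± 0.04, adjusted p = 0.0415) and was at -0.16 at 76 h (adjusted p = 0.174). The part of lymph node tissue in the T cell differences was not tested.

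Mammary epithelium moved the other way at 76 h. Of its 10 genes 8 rose at 76 h, with a median of 1.48 and 11.1% of all genes called higher, among them Krt5 (1.94 ± 0.15, adjusted p = 7.11e-09) and Elf5 (2.36 ± 0.27, adjusted p = 8.21e-07). The deviation of the list was 1.02 to 1.23 on those arrays against -0.48 to -0.09 in 76 h oil, and its summed intensity 17118 to 19459 against 6152 to 7678. Lists of other cells gave few calls at 76 h: of 5 adipocyte genes 0 were called by limma (1 at an unadjusted p under 0.05, median -0.11), of 6 skeletal muscle genes 0 (0 at an unadjusted p under 0.05, median -0.33), of 4 dendritic cell genes 0 (1 at an unadjusted p under 0.05, median -0.22), and of 11 macrophage genes 1 rose, Cd14 (0.47 ± 0.15, adjusted p = 0.0314). The dendritic cell deviation ran from -0.20 to -0.13 on the 76 h progesterone arrays and from -0.0085 to 0.07 in 76 h oil, and that of skeletal muscle from -1.13 to -0.15 against -1.73 to 0.45. At 4 and 16 h the epithelial list gave 1 call and 2 calls, of which Pgr was the fall at both times. Few genes were called at all there, 23 and 38 of 12352, with 0.0567% and 0.202% of all genes called lower. The share of the epithelial rise in the lower T cell values at 76 h was not tested.

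**Figure D4:**
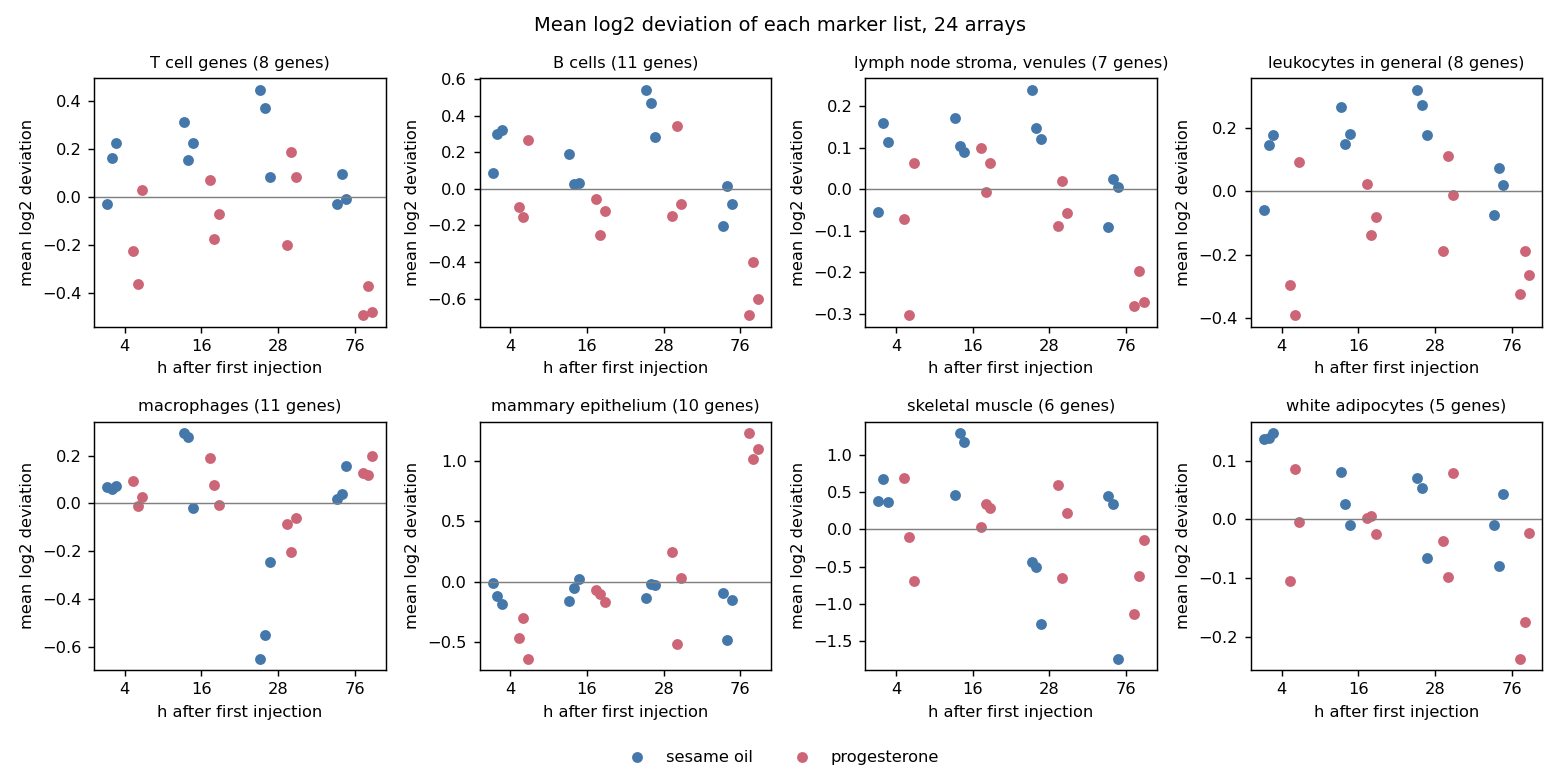
Mean log2 deviation of each marker list from its mean over the 24 arrays (the T cell genes and 7 lists of other cells), against the hours after the first injection; points are arrays, blue for sesame oil and red for progesterone, and each panel has its own scale. At 76 h the progesterone arrays of the T cell, B cell, lymph node and leukocyte lists lie below the oil arrays, and those of the epithelial list lie at 1.02 to 1.23.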

How the data were processed

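Per the labels' protocols, RNA was isolated from the glands with Trizol and labelled by the one-cycle biotin method. The deposited file gives linear intensity values, with 45101 probe sets and 24 arrays; how the probes were summarized and scaled is not given in the sources used here. Values under the 10th percentile of the whole table, 7.38, were raised to it before log2 was taken. Array medians spanned 0.16 on the log2 scale, under a limit of 0.3 for further normalization, and no normalization was added. The platform annotation dates from 2016: 34945 probe sets had 1 symbol, 932 several and 9160 none, and 64 were controls. Genes whose probe sets did not exceed the array median on 3 or more arrays were not tested.

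A model with 8 group means was fitted with limma 3.58.1 in R 4.3.3 (16 residual degrees of freedom, variance trended on intensity, two-sided tests). Errors are SE for log2 differences and SD for intensities. A list's deviation is the mean over its tested genes of the log2 value minus that gene's mean over 24 arrays, and its summed intensity covers its measured genes. The fit was tested on simulated data. With 3 arrays per group, their number limits the precision. The members and lists were chosen with earlier results of these data known. Genes named beyond the members were, per list and comparison, up to 4 called genes with the largest change (up to 2 where none was called), the 10 nearest genes of each likeness and Pgr. Glycam1, Foxp3, Chst4, Fut7 and Madcam1 were named after their values had been seen. Alternatives were other filters, floors, normalizations and probe sets, a pseudocount of 16, array weights, an untrended variance, a replicate block, single-time fits, other oil controls, a call at 0.1 and leaving out each array. Protein sequences were not used here.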

Additional observations from a re-analysis of the deposited data

How the results depend on the processing

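A pseudocount of 16, quantile normalization or centred arrays, other filters (none, or the 60th percentile) and another floor (the 25th percentile), averaged probe sets and an untrended variance left the number of members called within 1.5 times of 0, 0, 1 and 4 at the 4 times, 7 in the mean, 0 for the difference between times and 1 between oil groups. Array weights, which ran from 0.216 to 5.50 with 3 arrays per group, gave 4 members at 4 h, 6 at 16 h, 3 at 28 h, 7 at 76 h, 4 for the difference between times and 6 between oil groups, and moved the number of all genes called to 2771, 7332, 1619 and 4827 at the 4 times, 5674 in the mean, 8195 for the difference and 8286 between oil groups, from 23, 38, 313, 2195, 1539, 1238 and 1506. Against the other oil groups the members called numbered 5, 0, 0 and 8 at the 4 times, with 804, 559, 108 and 4028 genes. The 6 arrays of a time alone gave 0 members at 28 h, with 11, 16, 76 and 3533 genes at the 4 times, and the other Il7r probe set gave 0 at 28 h. A call at an adjusted p of 0.1 moved the gene counts to 105, 67 and 475 at 4, 16 and 28 h. Without the 76 h arrays the mean gave 2 members and 353 genes. Leaving out each array gave 0 to 3 members at 4 h (12 to 477 genes), 0 to 2 at 16 h (8 to 1843), 0 to 2 at 28 h (140 to 459), 0 to 5 at 76 h (1383 to 2392), 7 to 8 in the mean (1219 to 2086), 0 for the difference (740 to 2238) and 1 to 2 between oil groups (911 to 1942). The lower and higher genes were 7 and 16 at 4 h but 5 and 22 after quantile normalization, 25 and 13 at 16 h but 26 and 8 after centring, and 819 and 720 in the mean but 1051 and 584 after centring.

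Members that changed sign were mostly Cd4. At 16 h its 0.01 became -0.019 with centring, -0.30 with the mean of its probe sets, -0.60 with 1427779_a_at, -0.23 against the other oil groups, -0.072 without oil replicate 2 and -0.03 without progesterone replicate 3, and ran from -0.072 to 0.089 as each array was left out. At 28 h Cd4 became 0.20 against the other oil groups, 0.06 without oil replicate 1 and 0.089 without progesterone replicate 3 (from -0.48 to 0.089). Cd3d at 28 h became 0.0047 without progesterone replicate 1 (from -0.24 to 0.0047), and Il7r at 4 h 0.021 after quantile normalization. Cd8a became 0.29 at 4 h, 0.30 at 76 h and 0.11 in the mean with 1425335_at, and 0.028 at 4 h and 0.11 at 28 h with 1440811_x_at. The cause was not tested. Arrays of the same number at a time correlated from -0.02 to 0.35. Over all times same-numbered arrays had a median r of -0.01 (n = 84), as other pairs did (-0.01, n = 168). Most of the 84 pairs join different times, so this median does not decide on a pairing within a time. The numbers were not taken to pair the samples. A replicate block, shared over all times, left 0, 0, 1, 4, 7, 0 and 1 members called, with 28, 33, 298, 2148, 1476, 1138 and 1387 genes. Such a block cannot take up a pairing particular to 1 time.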

Other observations

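Genes of plasma cells, the antibody-secreting end of the B cell line, were lower with progesterone in the mean of the 4 times. In it 5 of 7 tested fell, against 6.63% of all genes, and the share of all genes called lower at 28 h was 0.591%. At 28 h 4 of the 7 fell: the immunoglobulin light chain locus Igk (-2.18 ± 0.48, limma adjusted p = 0.0105), the secretion factor Mzb1 (-1.37 ± 0.30, adjusted p = 0.0107), the antibody joining chain Jchain (-0.88 ± 0.22, adjusted p = 0.0248) and Irf4 (-0.62 ± 0.15, adjusted p = 0.0252). At 76 h Irf4 fell (-0.46, adjusted p = 0.035), against 6.7% of all genes, and the other 6 were not called. The oil groups differed for 5 of the 7 by the moderated F-test, against 12.2% of all genes, Mzb1 at adjusted p = 0.0119. The mean log2 deviation of the list was 0.85 ± 0.14 (SD, n = 3) in the 28 h oil group, against 0.07 ± 0.21 in oil at 4 h, 0.16 ± 0.06 at 16 h and -0.17 ± 0.27 at 76 h, and -0.10 ± 0.31 with progesterone at 28 h. The 28 h oil arrays also had the lowest macrophage deviations of the oil groups (-0.48 ± 0.21). A difference between times was not called for any of the 7 plasma cell genes (lowest adjusted p = 0.0688, for Derl3).

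Genes of NK and cytotoxic cells gave few calls, but as a list they were lower with progesterone at 76 h. Of 9 tested, Klrd1 fell at 76 h (-0.53 ± 0.18, adjusted p = 0.0452), against 6.7% of all genes. In the mean of the 4 times Klrd1 (-0.31 ± 0.09, adjusted p = 0.0237) and Nkg7 (-0.30 ± 0.06, adjusted p = 0.00138), a granule protein that cytotoxic T cells also make, fell, against 6.63%. The median of the 9 was -0.29 at 76 h. Their mean log2 deviation at 76 h ran from -0.42 to -0.31 with progesterone and from -0.18 to -0.05 in oil. Among 4 dendritic cell genes, Cd209a differed between times (adjusted p = 0.0457), with 0.75 ± 0.23 at 28 h (adjusted p = 0.0932) and -0.40 ± 0.23 at 76 h (adjusted p = 0.259).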
